A study of Mus musculus and Mus musculus
Oryx dammah with 30 samples.

Results

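The genes described here are 10 enzymes that write or erase methyl groups on histone H3, measured in mouse embryos that carried transferred myoblast nuclei. They comprise 5 methyltransferases of lysine 9 of histone H3 (H3K9), namely Suv39h1, Suv39h2, Setdb1, Ehmt1 and Ehmt2, the 4 H3K9 demethylases Kdm4a, Kdm4b, Kdm4c and Kdm4d, and Kdm5b, a demethylase of lysine 4 of the same histone (H3K4). They were chosen by gene name as the enzymes of this mark known from studies of nuclear transfer. Each name matched 1 row in each of the 3 mouse tables, which is 10 of 53023 genes in the four-cell table and in the table labelled D and DR, and 10 of 55364 genes in the two-cell table. In mm10 coordinates the methyltransferases lie at chrX:8061171-8074760 (Suv39h1), chr2:3455815-3475031 (Suv39h2), chr3:95323525-95357202 (Setdb1), chr2:24789928-24919614 (Ehmt1) and chr17:34898469-34914052 (Ehmt2). The demethylases lie at chr4:118136957-118180043 (Kdm4a), chr17:56326062-56402870 (Kdm4b), chr4:74242497-74405860 (Kdm4c), chr9:14462548-14500482 (Kdm4d) and chr1:134560171-134635285 (Kdm5b). All 10 are annotated as protein coding. The libraries did not keep strand, so reads in exons shared with another gene cannot be assigned, which concerns 14.6% of the exonic bases of Suv39h1 (shared with Gm14820), 8.10% of those of Suv39h2 with Dclre1c and 1.88% with Gm13184, 3.63% of those of Setdb1 with Gm37500 and 1.09% with Cers2, and 0.259% of those of Ehmt1 with Gm37139.

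Nuclei of C2C12 cells, a mouse myoblast line of C3H origin, were placed by cell fusion into in vitro fertilized BDF1 (C57BL/6 × DBA/2) embryos, 2 donor cells per embryo. The recipient embryos were held in cell cycle arrest with 0.1 µg/ml demecolcine, which stayed in the medium after the transfer, and the nuclear transfer (NT) embryos were cultured for 24 h and sequenced as pools. The four-cell groups were NT embryos made at 46 h after insemination and cultured without (3 pools) or with (3 pools) 2.5 µg/ml α-amanitin, an inhibitor of RNA polymerase II, with 3 embryos in a pool. The two-cell groups were NT embryos made at 21 or 30 h, again cultured without (6 pools) or with (6 pools) 2.5 µg/ml α-amanitin, with 5 embryos in a pool. The groups D and DR, each of 3 pools of 4 embryos with no α-amanitin, differed in when the nuclei were transferred relative to DNA replication of the recipient, and the labels do not tie either letter to a start time. In all of these groups the recipient nuclei stayed in the embryo, so the RNA of a pool held transcripts of the donor nuclei and of the embryo together, and the FPKM tables do not separate them.

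Methylation of H3K9 marks compact, silent chromatin. Suv39h1 and Suv39h2 place the trimethyl mark at pericentromeric heterochromatin, Setdb1 places it at retroelements and silenced genes, and Ehmt1 and Ehmt2 (GLP and G9a) act as a heterodimer that places mono- and dimethyl marks in euchromatin. Kdm4 enzymes remove the di- and trimethyl marks, and H3K9 trimethylation of a donor nucleus is known as a barrier to its activation after nuclear transfer, which extra Kdm4d or Kdm4b can lower, as extra Kdm5b can lower the barrier set by H3K4 trimethylation.

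Depth and embryo identity were checked first. Reads per library, estimated from the smallest steps of the FPKM values, were 1136771 to 3101002 in the four-cell table, 2603946 to 19181387 in the D and DR table and 4712268 to 10503779 in the two-cell table. The 8 oocyte and embryo markers summed to 1615 to 16086 FPKM in the 24 libraries of these tables. Dppa3 (Stella), an oocyte and cleavage embryo gene, was alone at 689 to 15928 FPKM. Others of these markers, such as Gdf9 and Nlrp5, were far lower in two-cell and four-cell pools. The 8 genes of the myoblast list summed to 7.22 to 243 FPKM. Of the myoblast genes, Vim reached 172 and Sparc 58.5 FPKM, Myod1 7.09 and Col1a1 0.312 FPKM. The two-cell columns fall into 2 sets by their names. The first set holds the untreated libraries NT1 to NT3 and the treated Am1 to Am3, and the R set holds the untreated R3, r1 and r2 and the treated RAm1 to RAm3. The names do not say which set was made at which start time, so transfer time and set cannot be told apart, and both sets entered each two-cell group. Compared pools were made with the same number of embryos and of donor cells per embryo, but the labels give no count of cells at sequencing. In such bulk pools, a loss of cells of a kind and less RNA per cell cannot be told apart.

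The promoters of 4 members are shown because, in FPKM as deposited, Kdm4c, Kdm5b and Ehmt1 had the largest log2 changes towards untreated two-cell embryos and Suv39h2 was the called gene in the other direction, a call that was lost with spike-in scaling. Each is the RefSeq window from 250 bases before to 50 after a transcription start in GRCm38.p6, read 5′ to 3′ on the strand of the gene, and capitals mark matches to the motifs named below.
Suv39h2 (chr2:3474937-3475236, minus strand): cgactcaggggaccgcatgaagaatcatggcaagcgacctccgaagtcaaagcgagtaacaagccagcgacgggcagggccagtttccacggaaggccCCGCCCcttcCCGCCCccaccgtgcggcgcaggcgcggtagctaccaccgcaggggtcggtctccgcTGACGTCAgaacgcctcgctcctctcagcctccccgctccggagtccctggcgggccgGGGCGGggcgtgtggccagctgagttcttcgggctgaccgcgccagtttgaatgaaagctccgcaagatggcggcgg
Ehmt1 (chr2:24919560-24919859, minus strand): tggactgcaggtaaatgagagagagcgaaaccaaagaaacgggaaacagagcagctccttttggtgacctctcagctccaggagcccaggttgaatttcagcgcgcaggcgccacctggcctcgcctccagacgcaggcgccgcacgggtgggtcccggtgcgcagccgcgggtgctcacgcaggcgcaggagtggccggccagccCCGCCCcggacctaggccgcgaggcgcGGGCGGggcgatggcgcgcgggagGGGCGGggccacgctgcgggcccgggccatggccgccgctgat
Kdm4c (chr4:74251629-74251928, plus strand): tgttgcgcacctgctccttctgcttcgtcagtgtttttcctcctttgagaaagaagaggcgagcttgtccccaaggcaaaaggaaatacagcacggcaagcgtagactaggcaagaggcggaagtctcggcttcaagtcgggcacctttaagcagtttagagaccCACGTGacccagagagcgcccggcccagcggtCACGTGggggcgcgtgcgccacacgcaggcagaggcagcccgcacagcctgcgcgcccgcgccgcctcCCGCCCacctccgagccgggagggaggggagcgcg
Kdm5b (chr1:134559928-134560227, plus strand): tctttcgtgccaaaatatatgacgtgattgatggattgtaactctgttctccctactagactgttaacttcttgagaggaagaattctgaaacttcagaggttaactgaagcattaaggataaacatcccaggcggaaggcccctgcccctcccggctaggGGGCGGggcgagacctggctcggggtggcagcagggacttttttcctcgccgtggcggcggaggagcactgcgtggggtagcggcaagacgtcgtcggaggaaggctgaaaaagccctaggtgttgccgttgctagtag

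RefSeq windows were found for 9 of the 10 members, in 12 entries, and none for Kdm4b. The motifs searched on both strands were GGGCGG (the GC box, present in 35.7% of all 32851 promoter windows), CCAAT (37.4%), CACGTG (the E-box, 7.15%), TGACGTCA (the cAMP response element, 1.79%), CCGGAAG (the Ets site, 8.86%) and TATAAA (13.6%). GGGCGG occurred 3 times in the Suv39h2 window, 3 times in the Ehmt1 window and once each in the Kdm4c and Kdm5b windows shown. The Suv39h2 window also held TGACGTCA, and the Kdm4c window held CACGTG, which reads the same on both strands. TATAAA was in none of the 12 member windows. Of the windows shown, GC content was 71.7% for Ehmt1, 68.3% for Suv39h2, 64.7% for Kdm4c and 54.7% for Kdm5b, against a median of 52.7% over all promoters. A second RefSeq start of Kdm4c, at chr4:74242247-74242546, differed sharply, with 40.0% GC, no CG dinucleotide and none of the motifs. That window lies at the gene start given above, whereas the Kdm4c window shown lies inside the gene. Which of these starts was used in the embryos was not tested. These matches describe the letters of the windows, and binding was not measured.

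Kdm4c and Kdm5b had the highest levels in every group without α-amanitin. Kdm4c was the most abundant by mean FPKM in four-cell NT, D, DR and untreated two-cell embryos, and Kdm5b was next in each of these groups. In the 3 untreated four-cell pools Kdm4c was at 20.7, 11.8 and 9.93 FPKM and Kdm5b at 9.07, 3.83 and 10.1 FPKM, so the 2 genes overlapped. Kdm4b and Kdm4d were at the bottom. Kdm4b did not exceed 0.763 FPKM in any of the 24 libraries, and Kdm4d did not exceed 0.370 FPKM outside D1 and D4. FPKM is scaled to gene length, so levels of different genes were set side by side, but only roughly. The length used was that of all annotated exonic bases, from 2861 for Kdm4d to 16555 for Kdm5b. These need not all be in the transcripts present. Most neighbours in these orders also overlapped over libraries. Of the 9 neighbouring pairs, 2 did not overlap in untreated four-cell embryos (Suv39h1 above Kdm4a and Kdm4a above Kdm4b), 2 in DR (Kdm4c above Kdm5b and Kdm4a above Kdm4b), 3 in D (Kdm5b above Suv39h1, Ehmt2 above Kdm4a and Kdm4a above Kdm4b) and 0 in untreated two-cell embryos.

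**Figure D1:**
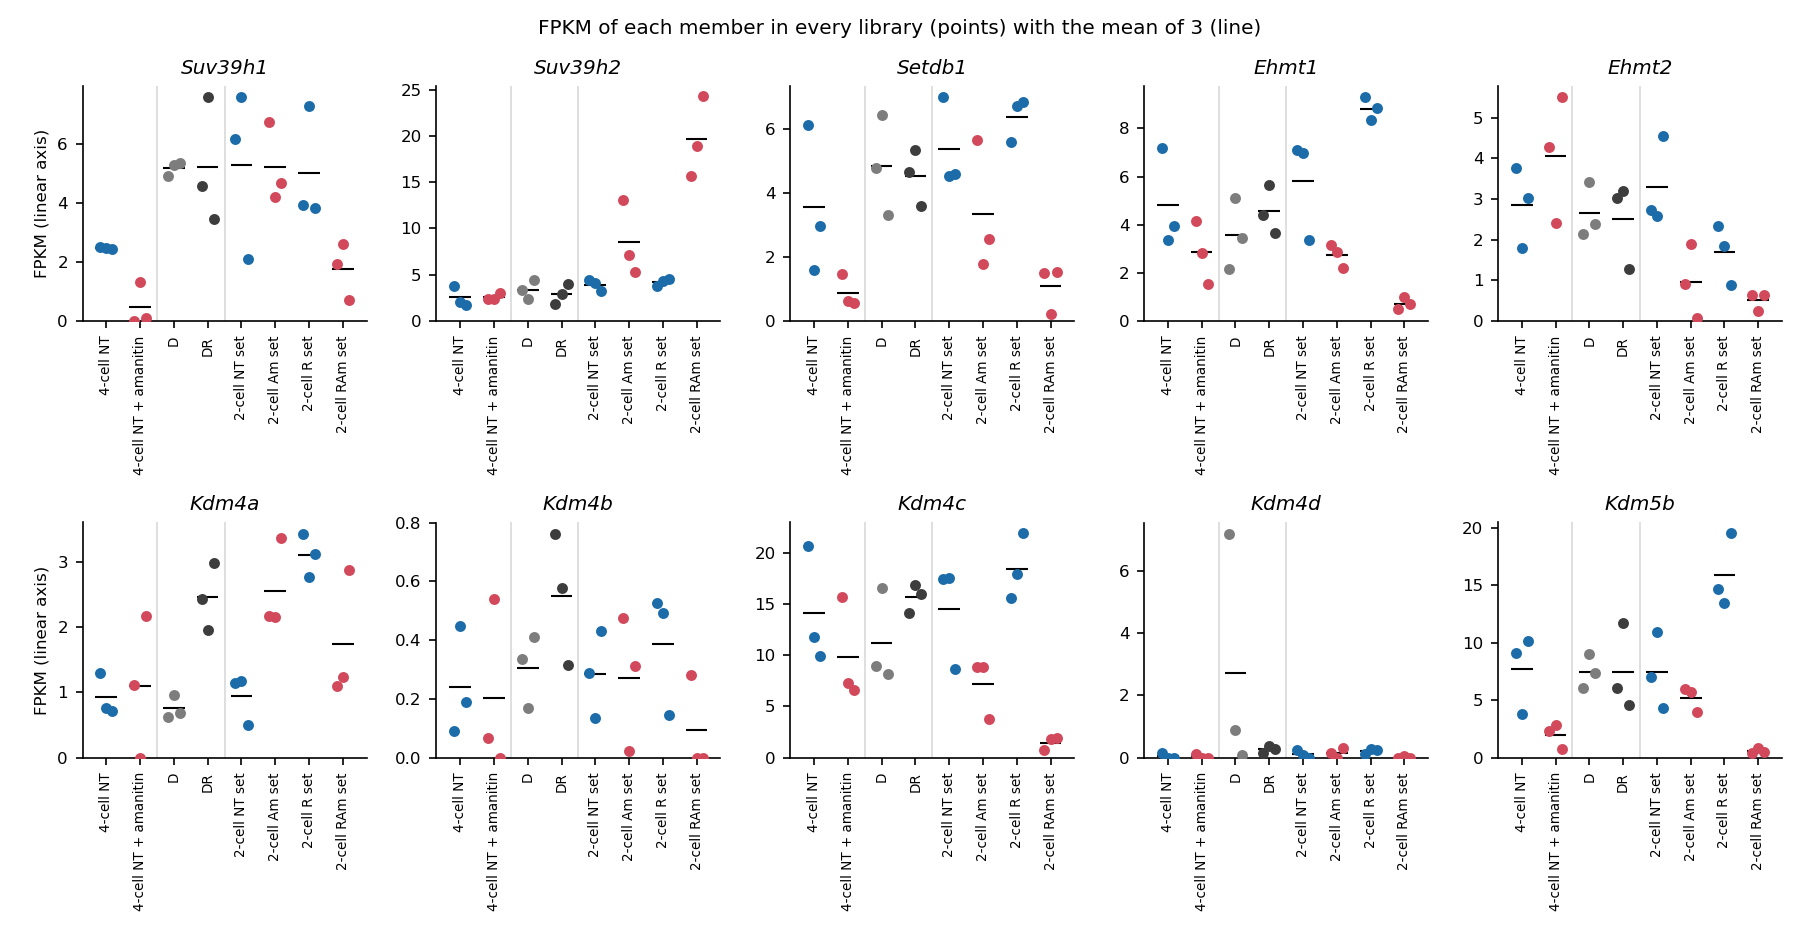
FPKM of the 10 enzymes in each library of the 3 experiments, with 1 point per pool of embryos and a line at the mean of each set of 3 pools (blue without and red with α-amanitin, grey for D and DR), on a linear axis that differs between genes. Kdm4c is highest in the untreated groups, Kdm4b lies below 1 FPKM throughout, and Suv39h2 is the enzyme whose treated two-cell pools (5.35 to 24.3 FPKM) all lie above the untreated ones (3.24 to 4.56 FPKM).

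The two-cell comparison asked which of these transcripts depend on RNA polymerase II during the culture of NT embryos. Of the 8 members that passed the filter on low values, 5 were higher in untreated than in α-amanitin-treated embryos (Kdm4c, Kdm5b, Ehmt1, Setdb1 and Ehmt2), 1 was lower (Suv39h2), and 2 did not pass the test (Suv39h1 and Kdm4a). Over all 17196 genes tested, 47.4% passed at an adjusted p under 0.05, 38.9% as higher and 8.51% as lower in untreated embryos. The median log2 change was 1.14 over the 8 members and 0.67 over all genes. Kdm4b and Kdm4d did not pass the filter, which asked for 1 FPKM in 3 libraries. Log2 changes here are differences of log2(FPKM + 1), which understate the change of low genes.

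Among the methyltransferases, Suv39h2 was the called gene that was lower in untreated embryos. In the 6 untreated pools it ranged from 3.24 to 4.56 FPKM with a median of 4.21, and in the 6 treated pools from 5.35 to 24.3 FPKM with a median of 14.4. The groups did not overlap, as was the case for 19.2% of all genes tested. The mean was 4.08 ± 0.494 FPKM (SD, n = 6) in untreated and 14.1 ± 7.13 FPKM (SD, n = 6) in treated embryos, a log2 change of -1.42 ± 0.35 (SE, limma adjusted p = 0.00699). Its partner Suv39h1, which deposits the same mark, lay at 2.12 to 7.58 FPKM (median 5.04) in untreated and 0.724 to 6.75 FPKM (median 3.40) in treated pools. These ranges overlapped, and the log2 change of 0.53, with a 95% interval from -0.30 to 1.36, did not pass the test (adjusted p = 0.263).

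Ehmt1 and Ehmt2, the subunits of the dimethyltransferase, were both higher in untreated embryos. Ehmt1 was at 3.35 to 9.32 FPKM (median 7.72) in untreated and 0.496 to 3.16 FPKM (median 1.59) in treated pools, again with no overlap. Its log2 change was 1.67 ± 0.34 (SE, adjusted p = 0.00247). Ehmt2 was at 0.881 to 4.54 FPKM (median 2.46) in untreated and 0.0678 to 1.88 FPKM (median 0.649) in treated pools, and the 2 groups overlapped. Its log2 change was 1.01 ± 0.30 (SE, adjusted p = 0.0165). Setdb1, the methyltransferase recruited by Trim28 to retroelements, was at 4.53 to 7.02 FPKM (median 6.17) in untreated and 0.232 to 5.66 FPKM (median 1.66) in treated pools. Its groups overlapped through Am1 alone, the treated pool at 5.66 FPKM, and its log2 change was 1.26 ± 0.35 (SE, adjusted p = 0.0116).

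Of the Kdm4 demethylases, Kdm4c was higher in untreated embryos and Kdm4a did not pass the test. Kdm4c was at 8.67 to 21.9 FPKM (median 17.5) in untreated and 0.745 to 8.89 FPKM (median 2.82) in treated pools. The groups overlapped narrowly, between NT3 at 8.67 FPKM and Am1 and Am2 at 8.86 and 8.89 FPKM, and the log2 change was 1.98 ± 0.44 (SE, adjusted p = 0.00407). Kdm4a, a widely expressed member of the family, was at 0.502 to 3.44 FPKM (median 1.97) in untreated and 1.10 to 3.36 FPKM (median 2.16) in treated pools. The treated range lay inside the untreated one, with a log2 change of -0.12 (95% interval -0.81 to 0.57, adjusted p = 0.775). Kdm4b reached at most 0.526 FPKM and Kdm4d at most 0.295 FPKM, with at most 25 and 7.50 estimated reads behind a value, and neither passed the filter on low values.

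Kdm5b, the H3K4 demethylase, was at 4.35 to 19.5 FPKM (median 12.2) in untreated and 0.357 to 5.97 FPKM (median 2.38) in treated pools. The overlap came from NT3 at 4.35 FPKM and from Am1 and Am2 at 5.97 and 5.70 FPKM. The log2 change was 1.92 ± 0.50 (SE, adjusted p = 0.00819). All 6 calls of the two-cell comparison held in each of the 12 fits that left out 1 library.

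**Figure D2:**
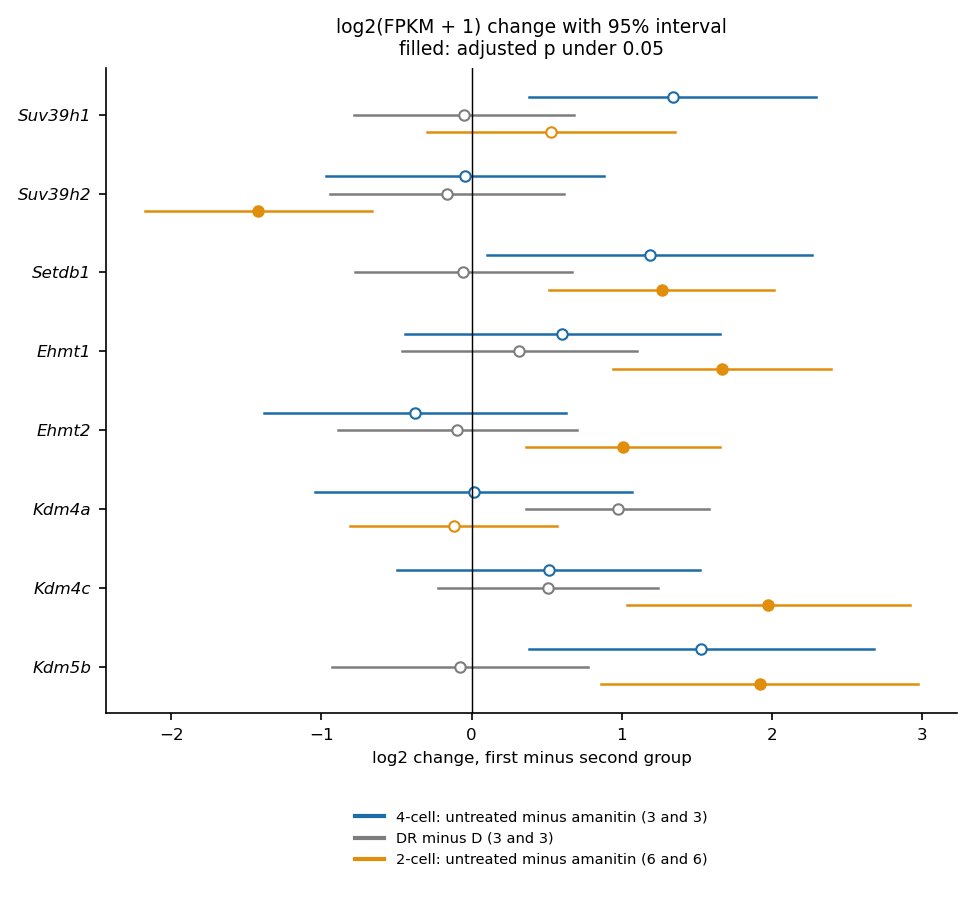
Log2 change (difference of log2(FPKM + 1), horizontal axis) of the 8 members that passed the filter in the 3 comparisons, with 95% intervals as bars and filled points where the adjusted p was under 0.05. In the two-cell comparison 5 members are filled to the right and Suv39h2 is filled to the left, whereas no point is filled in the four-cell and the DR against D comparisons.

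The scaling of the libraries set the direction reported for some members. ERCC spike-in RNA took 2.38 to 6.26% of the reads in untreated and 6.54 to 11.3% in treated two-cell pools, and FPKM as deposited were not corrected for this. With FPKM scaled to the spike-ins, the median log2 change of all genes moved from 0.67 to 1.49, and with median-of-ratios scaling to 0.24. The calls over all genes were 6694 higher and 1464 lower as deposited, 12276 and 281 with spike-in scaling and 3768 and 2443 with median-of-ratios scaling. Among the members, spike-in scaling gave 6 higher and 0 lower, against a background of 71.4% higher and 1.63% lower. Suv39h1 joined the higher genes with a log2 change of 1.58 (adjusted p = 0.00488), Kdm4a was at 0.84 (adjusted p = 0.0806), and Suv39h2 was no longer called, at -0.17 (adjusted p = 0.702). Spike-in-scaled values of Suv39h2 were 3.06 to 10.1 in untreated and 3.49 to 11.7 in treated pools, so its groups then overlapped almost fully. Median-of-ratios scaling kept Kdm4c, Kdm5b and Ehmt1 as higher and Suv39h2 as lower, beside 21.9% of all genes as higher and 14.2% as lower, and Setdb1 (log2 change 0.71, adjusted p = 0.0870) and Ehmt2 (0.57, adjusted p = 0.137) did not pass.

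The column sets differed in how far some members changed with α-amanitin. In the set of NT1 to NT3 and Am1 to Am3 alone, 0 of the 8 members were called in limma, where 16.9% of 14285 genes were, and the smallest adjusted p was that of Ehmt2 (log2 change 1.22, adjusted p = 0.0815). At an unadjusted p under 0.05 there were 5 members (Ehmt2, Kdm4a, Suv39h2, Ehmt1 and Kdm4c), beside 33.7% of genes. In the set of R3, r1, r2 and RAm1 to RAm3 alone, 6 of the 7 tested members were called, where 76.8% of 14387 genes were, 60.5% as higher and 16.4% as lower. They were Kdm5b (log2 change 3.45), Kdm4c (3.00), Ehmt1 (2.52), Setdb1 (1.89) and Suv39h1 (1.14) as higher in untreated embryos and Suv39h2 (-1.96) as lower, and Ehmt2 did not pass the filter in that set.

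The difference between the sets was tested as an interaction term over the 12 libraries, which 44.5% of all 17196 genes passed, 36% with a positive term, that is, with the untreated minus treated difference larger in the R set. The 4 members that did so were Kdm5b, Kdm4c, Ehmt1 and Kdm4a. Kdm5b was at 7.05, 10.9 and 4.35 FPKM in NT1 to NT3 and 5.97, 5.70 and 3.95 in Am1 to Am3, but at 14.6, 13.5 and 19.5 in R3, r1 and r2 and 0.357, 0.811 and 0.441 in RAm1 to RAm3. Its values overlapped between untreated and treated pools in the first set and lay apart in the R set, with an interaction of 3.07 ± 0.44 on the log2 scale (SE, adjusted p = 0.000179). Kdm4c was at 17.5, 17.6 and 8.67 FPKM in NT1 to NT3 and 8.86, 8.89 and 3.75 in Am1 to Am3, and at 15.6, 17.97 and 21.9 in R3, r1 and r2 and 0.745, 1.77 and 1.89 in RAm1 to RAm3. As deposited, its untreated values overlapped between the sets and its treated values did not, while scaled to the spike-ins the untreated values lay apart too, at 8.19 to 30.4 in NT1 to NT3 and 33.7 to 48.8 in R3, r1 and r2. The interaction of Kdm4c, as deposited, was 2.06 ± 0.52 (SE, adjusted p = 0.00663).

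Ehmt1 separated untreated from treated pools in both sets, more widely in the R set. It was at 7.11, 6.98 and 3.35 FPKM in NT1 to NT3 and 3.16, 2.86 and 2.19 in Am1 to Am3, and at 9.32, 8.33 and 8.83 in R3, r1 and r2 and 0.496, 0.984 and 0.705 in RAm1 to RAm3. The interaction was 1.70 ± 0.40 (SE, adjusted p = 0.00450). The changes of Kdm4a had opposite signs in the sets. It was at 1.15, 1.17 and 0.502 FPKM in NT1 to NT3, below the 2.17, 2.15 and 3.36 of Am1 to Am3, but at 3.44, 2.76 and 3.12 in R3, r1 and r2, of which 2 lay above the 1.10, 1.23 and 2.88 of RAm1 to RAm3. Neither change passed the test within its set (adjusted p = 0.0858 and 0.0875), and the interaction was 1.52 ± 0.42 (SE, adjusted p = 0.0113).

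In FPKM as deposited, Suv39h2 was higher in treated pools in both sets. It was at 4.45, 4.07 and 3.24 FPKM in NT1 to NT3 and 13.1, 7.18 and 5.35 in Am1 to Am3, and at 3.79, 4.34 and 4.56 in R3, r1 and r2 and 15.7, 18.9 and 24.3 in RAm1 to RAm3. The interaction of -1.08 (95% interval -1.999 to -0.161) did not pass after adjustment (adjusted p = 0.0546). For Setdb1 (1.26, adjusted p = 0.0686), Suv39h1 (1.23, adjusted p = 0.106) and Ehmt2 (-0.42, adjusted p = 0.544) the interaction did not pass either. Between the untreated libraries of the sets, R3, r1 and r2 against NT1 to NT3, no member was called with FPKM as deposited, where 2.45% of genes were, and the smallest adjusted p values were those of Kdm4a (1.10, adjusted p = 0.0732) and Kdm5b (1.06, adjusted p = 0.0944). Between the treated ones, RAm1 to RAm3 against Am1 to Am3, 6 members were called, where 54% of genes were, 43.1% as lower and 10.9% as higher. Kdm5b (-2.01), Kdm4c (-1.68), Suv39h1 (-1.21), Ehmt1 (-1.11) and Setdb1 (-1.03) were lower in RAm1 to RAm3, and Suv39h2 (1.17) was higher. Spike-in RNA took 2.38 to 2.81% of reads in R3, r1 and r2 and 3.15 to 6.26% in NT1 to NT3, and 8.77 to 11.3% in RAm1 to RAm3 and 6.54 to 8.93% in Am1 to Am3. On the spike-in scale 3 members were higher in R3, r1 and r2 than in NT1 to NT3, namely Kdm4a (1.75, adjusted p = 0.00596), Kdm5b (1.76, adjusted p = 0.0135) and Ehmt1 (1.25, adjusted p = 0.0399), beside 18.2% of all genes as higher and 1.34% as lower. On that scale the interaction of Kdm5b (3.64), Kdm4c (2.83), Kdm4a (2.37), Ehmt1 (2.36), Setdb1 (1.98) and Suv39h1 (1.94) passed, beside 53.2% of all genes, and that of Suv39h2 was 0.03 (adjusted p = 0.970). Spike-in-scaled values of Suv39h2 overlapped between untreated and treated pools in both sets. They were 3.06 to 7.76 in NT1 to NT3 and 3.49 to 9.29 in Am1 to Am3. In R3, r1 and r2 they were 8.13 to 10.1, and in RAm1 to RAm3 7.54 to 11.7.

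**Figure D3:**
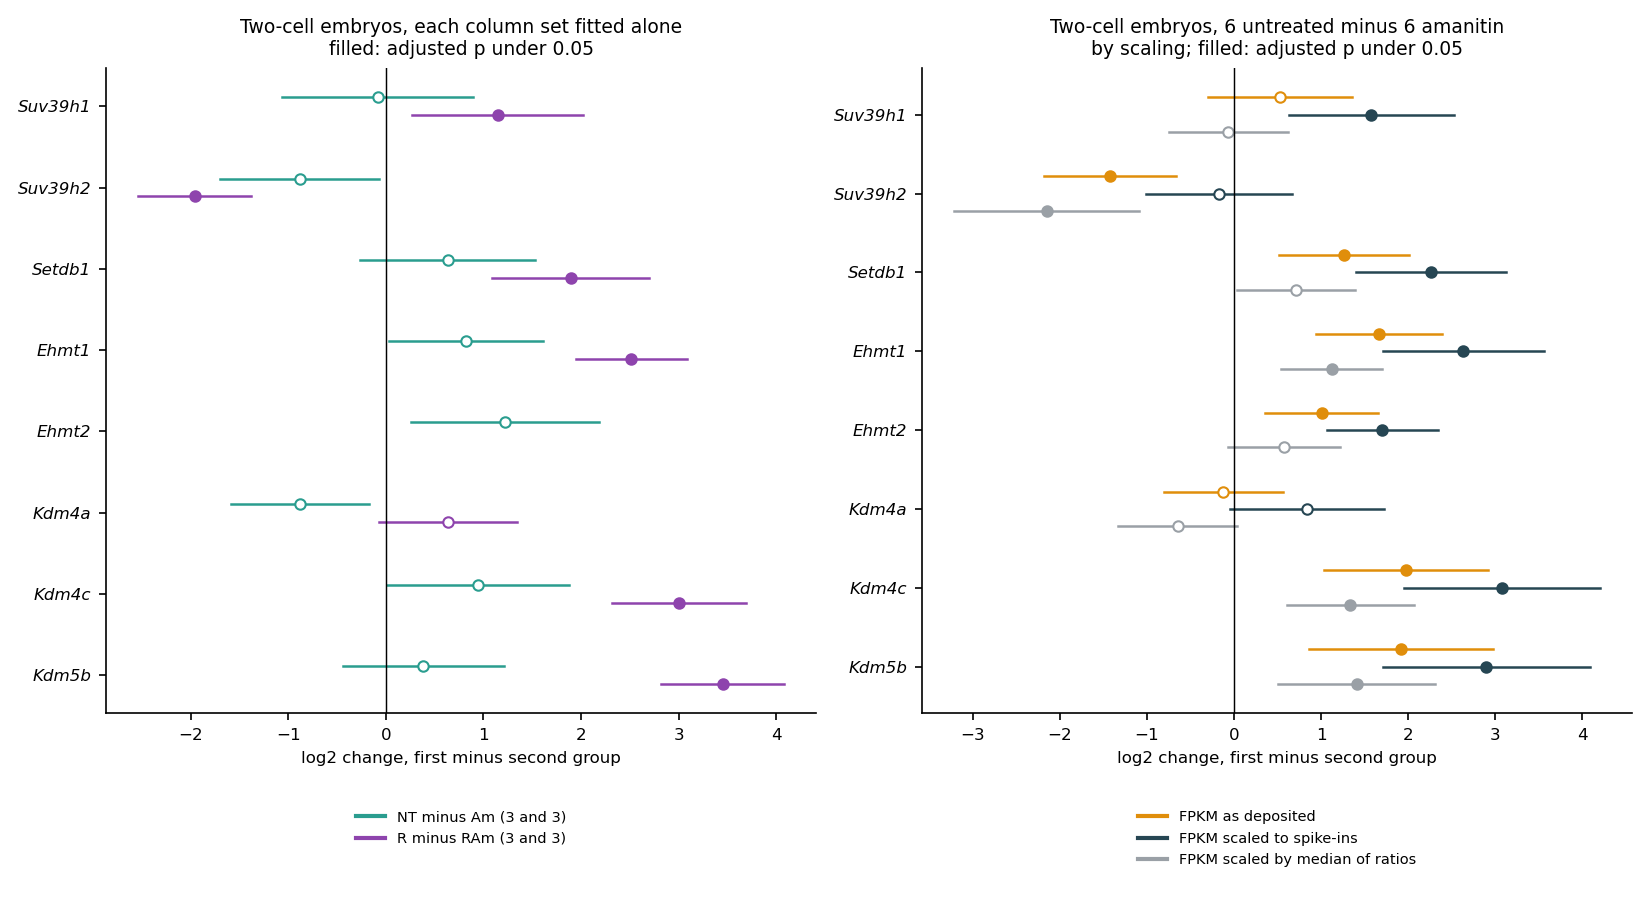
Log2 change between untreated and α-amanitin-treated two-cell embryos for each member, within the 2 column sets and under the 3 scalings, with 95% intervals as bars and filled points where the adjusted p was under 0.05. Changes of Kdm5b, Kdm4c and Ehmt1 are larger in the R set than in the NT set, and Suv39h2 moves from -1.42 as deposited to -0.17 with spike-in scaling.

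Oocyte and embryo transcripts differed between the same two-cell groups. Bmp15 was at 3.47 to 11.003 FPKM in untreated and 3.54 to 205 FPKM in treated pools, Oosp1 at 35.3 to 144 and 151 to 1780 FPKM, Nlrp5 at 2.24 to 4.92 and 12.3 to 41.6 FPKM and Gdf9 at 4.35 to 14.4 and 10.3 to 34.6 FPKM. By median, 6 of the 8 oocyte and embryo markers were higher in treated pools, and Zp3 and Dppa3 were higher in untreated ones. The summed level of the 8 was 7468 to 12366 FPKM in untreated and 1615 to 8129 FPKM in treated pools, most of it Dppa3. The 8 genes of the myoblast list summed to 20.8 to 243 FPKM in untreated and 47.3 to 121 FPKM in treated pools, most of it Vim and Sparc, which other cells also express. By median, 6 of these 8 were higher in untreated pools and 1 in treated ones. Myf5 reached 4.43 FPKM in untreated pools and was listed at 0 in all treated ones, Cdh15 was at 0.127 to 3.65 and 0 to 0.849 FPKM, and Col1a1 and Myod1 were at 0.454 FPKM or less. The part of these transcripts in the member changes was not tested.

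In four-cell embryos the same comparison gave 0 calls among the 8 tested members in limma, where 12.2% of 9884 genes were called, 11.1% as higher and 1.13% as lower in untreated embryos. At an unadjusted p under 0.05 there were 3 members (Suv39h1, Setdb1 and Kdm5b), beside 28.9% of all genes, and voom on estimated reads called 2 of them (Suv39h1 and Kdm5b), beside 12% of all genes. The same 3 members did not overlap between the groups, as 35.2% of all genes did not. The median log2 change was 0.56 over the members and 0.37 over all genes. With median-of-ratios scaling the median of all genes moved to 0.13, and the calls over all genes went from 1093 higher and 112 lower to 760 higher and 223 lower, with 0 members called in either.

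Suv39h1 was even in untreated four-cell pools, at 2.499, 2.49 and 2.46 FPKM, and uneven in treated ones, at 0, 1.34 and 0.119 FPKM. The groups did not overlap, and the log2 change of 1.34 ± 0.42 (SE) missed the threshold (limma adjusted p = 0.0716). Without the treated library S18 it was 1.72 and called (adjusted p = 0.0434). Suv39h2, by contrast, was at 3.78, 2.11 and 1.78 FPKM in untreated and 2.34, 2.39 and 3.00 FPKM in treated pools, which overlapped, with a log2 change of -0.04 (95% interval -0.97 to 0.88, adjusted p = 0.958). Setdb1 was at 6.15, 1.59 and 2.97 FPKM in untreated and 1.46, 0.642 and 0.551 FPKM in treated pools. These did not overlap, but untreated pools spread widely and the log2 change of 1.19 ± 0.48 (SE) had an adjusted p of 0.139.

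Kdm5b, which ranked next to Kdm4c in level, also separated untreated from treated four-cell pools. It was at 9.07, 3.83 and 10.1 FPKM in untreated and 2.34, 2.82 and 0.760 FPKM in treated pools, with no overlap and a log2 change of 1.53 ± 0.51 (SE, adjusted p = 0.0827). Kdm4c was at 20.7, 11.8 and 9.93 FPKM in untreated and 15.7, 7.25 and 6.59 FPKM in treated pools, and Ehmt1 at 7.19, 3.37 and 3.93 against 4.17, 2.82 and 1.55 FPKM. Both overlapped between groups, with log2 changes of 0.51 (95% interval -0.50 to 1.52) and 0.60 (-0.45 to 1.65). Ehmt2 was at 3.76, 1.79 and 3.03 FPKM in untreated and 4.29, 2.40 and 5.50 FPKM in treated pools, a log2 change of -0.38 (95% interval -1.38 to 0.63). Kdm4a was at 1.29, 0.756 and 0.720 against 1.12, 0 and 2.18 FPKM, where the treated library S18 held no read of it. Kdm4b and Kdm4d were below 1 FPKM in all 6 libraries and were not tested.

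Oocyte and embryo transcripts were also compared between the four-cell groups. Zp3 was at 9.91 to 11.5 FPKM in untreated and 23.3 to 74.2 FPKM in treated pools, and Nlrp5 at 1.80 to 2.63 and 3.81 to 8.31 FPKM, while Tcl1, at 3.85 to 4.76 and 0.477 to 11.5 FPKM, and Gdf9, at 0.228 to 2.59 and 2.17 to 5.58 FPKM, overlapped. The median was higher in treated pools for 8 of the 8 oocyte and embryo markers, whose sum was 8704 to 9906 FPKM in untreated and 12179 to 16086 FPKM in treated pools. The myoblast list summed to 12.2 to 19.3 and 7.22 to 49.0 FPKM, with Col1a1 listed at 0 in all 6 libraries. The part of these transcripts in the member values was not tested. The four-cell table lists no spike-ins.

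Between D and DR no gene of 14570 tested was called in limma, members included. At an unadjusted p under 0.05 there were 897 genes (6.16%), and voom on estimated reads called 0 as well. Kdm4a was the only member among the 897. It was at 2.43, 1.95 and 2.99 FPKM in DR1 to DR3 and 0.628, 0.956 and 0.682 FPKM in D1, D4 and D5. The groups did not overlap, as 12.2% of genes did not, and the log2 change of DR over D was 0.97 ± 0.26 (SE, adjusted p = 0.788). With spike-in scaling it was -0.19. Spike-ins took 0.0181 to 0.776% of the reads in these 6 libraries, and the spike-in factors spanned 0.0945 to 5.65 in D and 0.367 to 4.04 in DR. Kdm4c was at 14.2, 16.9 and 16.0 FPKM in DR and 8.98, 16.5 and 8.13 FPKM in D, which overlapped through D4, with a log2 change of 0.51 (95% interval -0.22 to 1.24) that became -1.14 with spike-in scaling.

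None of the 5 methyltransferases separated D from DR. Suv39h1 was at 4.58, 7.59 and 3.47 FPKM in DR and 4.93, 5.30 and 5.36 FPKM in D, and Suv39h2 at 1.89, 2.96 and 3.96 against 3.37, 2.33 and 4.49 FPKM. Setdb1 was at 4.66, 5.36 and 3.61 against 4.79, 6.45 and 3.32 FPKM, Ehmt1 at 4.39, 5.65 and 3.64 against 2.16, 5.11 and 3.46 FPKM, and Ehmt2 at 3.03, 3.19 and 1.28 against 2.14, 3.42 and 2.39 FPKM. The groups overlapped for each of the 5 genes, and the 95% intervals of their log2 changes all included 0, the widest reaching from -0.94 to 0.61 for Suv39h2 on the low side and to 1.10 for Ehmt1 on the high side. Kdm5b was at 6.02, 11.7 and 4.62 FPKM in DR and 6.08, 8.98 and 7.34 FPKM in D, a log2 change of -0.08 (95% interval -0.93 to 0.77).

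Kdm4d departed from its low level in D1. It was at 7.20, 0.897 and 0.0752 FPKM in D1, D4 and D5 and at 0.151, 0.370 and 0.268 FPKM in DR1 to DR3. About 125 estimated reads stood behind the D1 value and about 49 behind that of D4. Kdm4d reached 1 FPKM in 1 library and was not tested, so this is a value of 1 pool and not of the group.

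The mix of enzymes within a family was also described as a share of summed FPKM. Suv39h2 made up 34.9 to 60.5% of the Suv39h1 and Suv39h2 sum in the untreated two-cell pools, 53.3 to 66.0% in Am1 to Am3 and 87.9 to 97.1% in RAm1 to RAm3. In four-cell pools its share was 60.2, 45.8 and 42.0% without and 100, 64.2 and 96.2% with α-amanitin, so the treated shares lay above the untreated ones. The treated shares rest on 0 to 8 estimated reads of Suv39h1, beside 24 to 30 in untreated pools, and the log2 change of the Suv39h2 level was -0.044 there and did not pass the test. Kdm4c made up 79.2 to 92.7% of the summed Kdm4 FPKM in untreated two-cell pools, 48.6 to 80.4% in Am1 to Am3 and 35.0 to 58.2% in RAm1 to RAm3. In four-cell pools Kdm4c was the main Kdm4 transcript in both groups, at 90.8 to 93.1% without and 75.2 to 93.1% with α-amanitin. In D1 its share was 52.4%, because Kdm4d took 42.0% there.

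**Figure D4:**
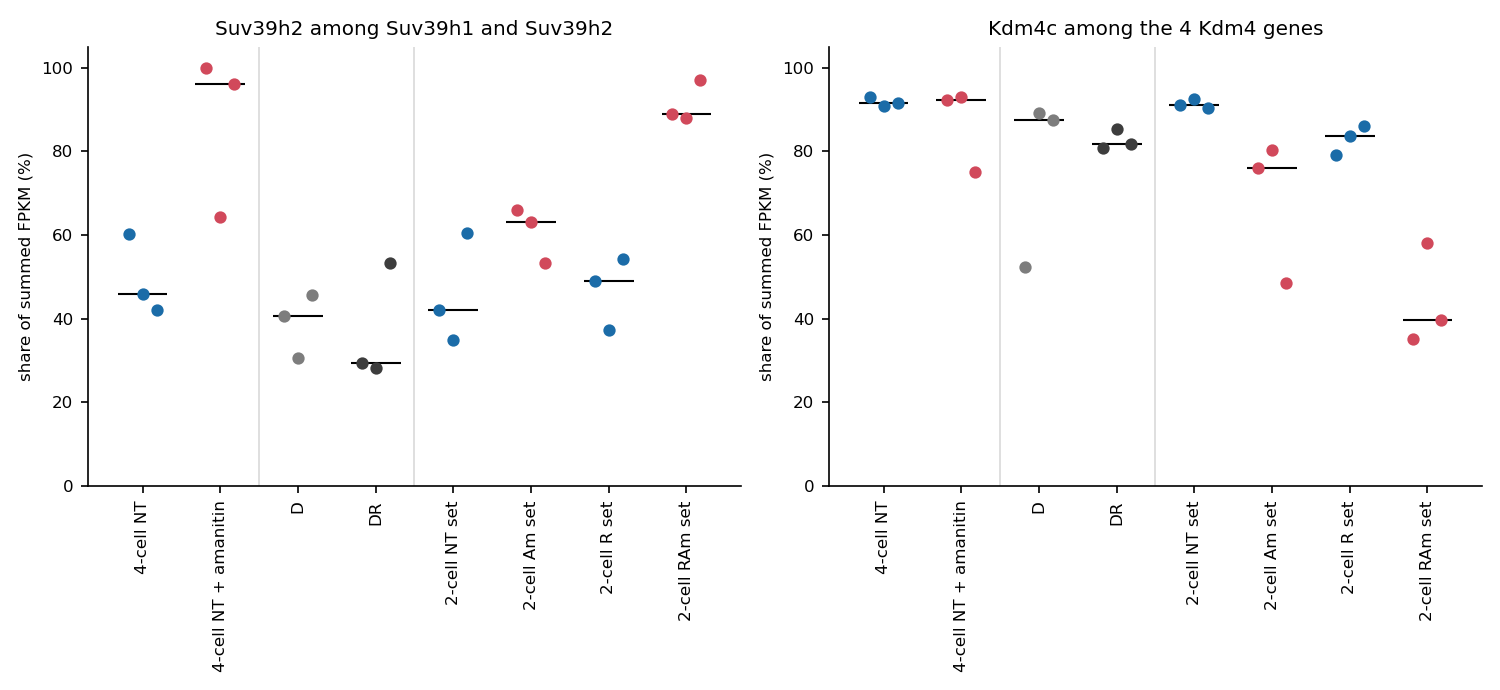
Share of Suv39h2 in the summed FPKM of Suv39h1 and Suv39h2 (left) and of Kdm4c in that of the 4 Kdm4 genes (right), in percent, with 1 point per library and a line at the median of each set of 3. Suv39h2 makes up 87.9 to 97.1% of its pair in RAm1 to RAm3 against 34.9 to 60.5% in untreated two-cell pools, and Kdm4c makes up 35.0 to 58.2% of the Kdm4 sum in RAm1 to RAm3.

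Other genes of H3K9 methylation were described from a list of 29 (other H3K9 methyltransferases, their partners, readers of the mark, other H3K9 demethylases and other H3K4 demethylases). In two-cell embryos 24 of them passed the filter, of which 13 were higher in untreated embryos and 0 were lower, beside 38.9% and 8.51% of all genes, and the median log2 change was 0.88 beside 0.67. By role, 6 of 8 tested partners were higher, as were 2 of 5 readers, 4 of 6 H3K9 demethylases, 1 of 2 methyltransferases and 0 of 3 H3K4 demethylases. Kdm1a (LSD1), a demethylase of H3K4 and H3K9, had the largest log2(FPKM + 1) change as deposited, 2.10 ± 0.41 (SE, adjusted p = 0.00197). Cbx3 (HP1γ), which binds methylated H3K9, followed with 1.89 ± 0.41 (SE). Of the partners, Pphln1 of the HUSH complex was at 1.84, Zfp644, a partner of Ehmt1 and Ehmt2, at 1.59, Trim28 (KAP1), which recruits Setdb1, at 1.4996, and Morc2a, which acts with HUSH, at 1.31. Cbx5 (HP1α) was at 1.26 and Kdm3a, a demethylase of mono- and dimethylated H3K9, at 1.23. With median-of-ratios scaling 6 of the 24 were higher and 3 lower (Uhrf1, Kdm7a and Kdm1b), beside 21.9% and 14.2% of all genes. With spike-in scaling 21 were higher and 0 lower, beside 71.4% and 1.63% of all genes. The count fell to 8 without RAm3, without R3 or without r1. It was 1 (Cbx3) in the set of NT1 to NT3 and Am1 to Am3 alone, where 16.9% of all genes were called, and 16 higher and 2 lower in the other set, where 60.5% of all genes were higher and 16.4% lower.

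**Figure D5:**
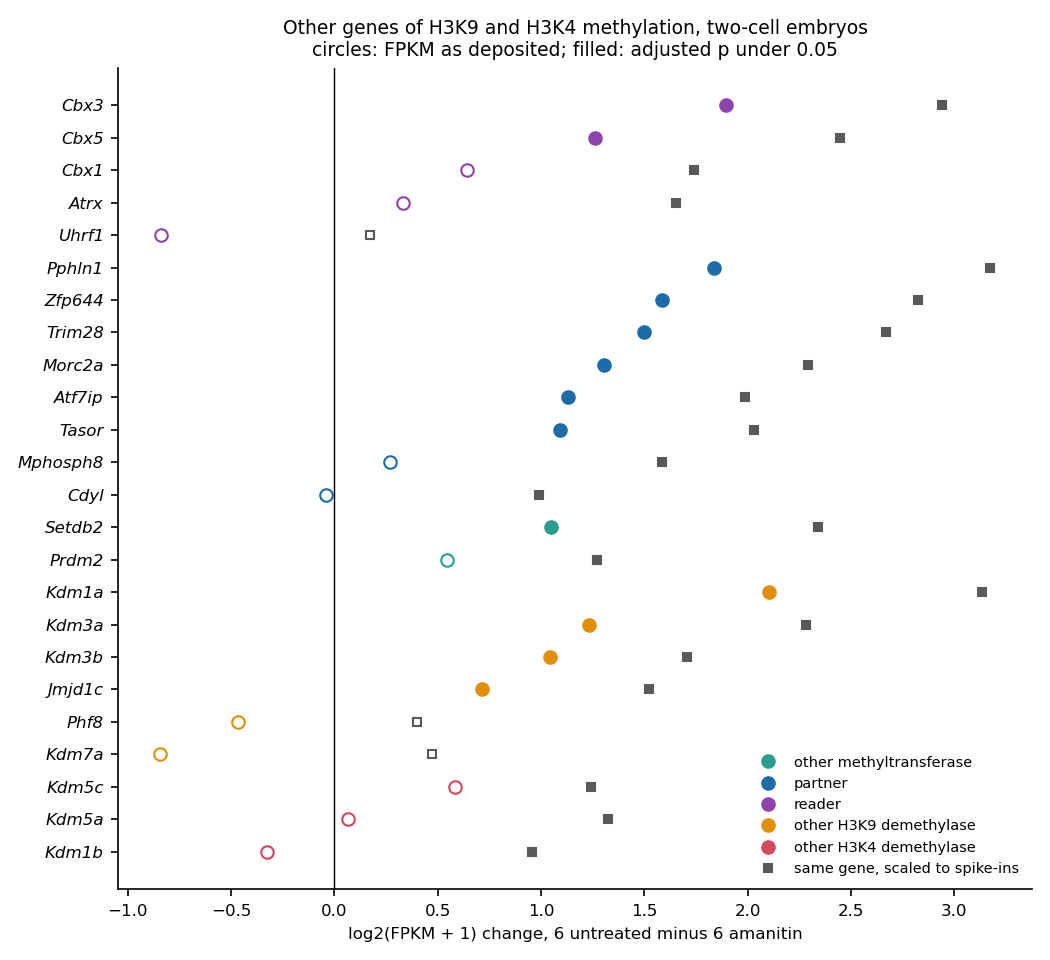
Log2 change between untreated and α-amanitin-treated two-cell embryos for the 24 listed genes that passed the filter, with circles coloured by role for FPKM as deposited, squares for FPKM scaled to spike-ins, and filled symbols where the adjusted p was under 0.05. The 13 filled circles all lie to the right, from 0.71 for Jmjd1c to 2.10 for Kdm1a.

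In four-cell embryos 2 of the 20 tested genes of this list were higher in untreated pools and 0 lower, beside 11.1% and 1.13% of all genes, namely Mphosph8 of the HUSH complex (log2 change 2.06, adjusted p = 0.0132) and Kdm3b, an H3K9 demethylase (1.51, adjusted p = 0.0492). The count was 0 without any of the untreated libraries S15, S17 or S7 and 1 without the treated S18 or S8. Between D and DR, 0 of the 25 tested genes were called, beside 0 of all genes.

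Likeness of pattern was described for the 2 members whose log2(FPKM + 1) as deposited varied most over the 12 two-cell libraries. For Kdm5b the genes with the highest Pearson r of log2(FPKM + 1) were Gdap2 (r = 0.990), Dhx29 (0.990) and Fcgr2b (0.988), and for Kdm4c they were Fem1c (0.992), Gm8177 (0.991) and Rnf4 (0.986). Kdm4c, Kdm5b and Ehmt1 were also close to each other, with r of 0.961 to 0.974. These libraries share treatment, set and scaling, so the values describe the pattern and carry no p.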

How the data were processed

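RNA of pooled NT embryos was sequenced from SMART-seq libraries. The authors filtered the reads with Trimmomatic, trimmed them with Trim Galore and cutadapt, mapped them to mm10 with STAR and counted them with featureCounts (versions not given in the sources used here), and deposited FPKM per gene, which are scaled to gene length and to all reads counted in the library, spike-ins included, with no correction by spike-ins. Libraries were grouped by their labels and column names, and 4 columns matching no sample were not used. The oryx table was not used here.

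Genes that reached 1 FPKM in 3 or more libraries of the compared groups were tested on log2(FPKM + 1) with limma 3.58.1 (R 4.3.3, mean-variance trend), which was also tested on simulated data, and p-values were adjusted by Benjamini-Hochberg over all genes tested. A gene was called at an adjusted p under 0.05. Intervals are 95%. The p-values measure the spread between pools, since the labels do not say whether pools came from separate fertilizations. In the two-cell comparison this spread includes the difference between the column sets, which had no term in the main fit. The column-set interaction came from a fit of the 4 column names. Alternatives were a pseudocount of 0.1, no filter on low values, median-of-ratios and spike-in scaling, voom on reads estimated from FPKM and gene length, leaving out each library and, in the two-cell table, a replicate block, a column-set block and each set alone. Voom and the column-set fits were chosen after seeing the data. Estimated reads came out whole, within 0.01, for 100% of values above 0 in the four-cell table and 40.3 to 50.5% in the others.

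The members and lists were chosen with earlier results of these data known. All 10 members are named, with every called gene of the list of 29 or, beyond 8, the 8 with the largest change, and the 3 genes most like each of the 2 members that varied most over two-cell libraries. Marker lists were Zp3, Gdf9, Bmp15, Dppa3, Nlrp5, Oosp1, Tcl1 and Obox5 for oocyte and embryo and Myod1, Myf5, Cdh15, Col1a1, Col1a2, Sparc, Tagln and Vim for myoblasts.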

Additional observations from a re-analysis of the deposited data

Results flagged for a closer look

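The log2 change between untreated and α-amanitin-treated two-cell embryos differed between the column sets for 4 members, by the interaction term of a limma fit over the 12 libraries. The change in the set of R3, r1, r2 and RAm1 to RAm3 exceeded that in the set of NT1 to NT3 and Am1 to Am3 by 3.07 for Kdm5b, 2.06 for Kdm4c, 1.70 for Ehmt1 and 1.52 for Kdm4a, beside a median of 0.76 over all genes. Of the 17196 genes tested, 44.5% passed the same term, so 4 of 8 tested members is near the share of all genes. These 4 also passed with spike-in scaling, as did 53.2% of all genes. No value in the 20 two-cell groups of 6 libraries stood apart by Dixon's criterion.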

How the results depend on the processing

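Of 337 recomputed member changes, 296 kept their direction and their side of the threshold, 10 lost a call, 6 gained one and 25 turned sign, and none of those 25 was called in either fit; the cause was not tested. Members called in four-cell embryos numbered 0 to 1 on leaving out each library (1 without the treated S18) and 2 with voom (Suv39h1 3.69, adjusted p = 0.0492, and Kdm5b 2.04, adjusted p = 0.0455). In two-cell embryos they numbered 0 in the set of NT1 to NT3 and Am1 to Am3 alone, and 6 on leaving out each library. Of the listed pathway genes, 1 was called in four-cell embryos with a pseudocount of 0.1, without the filter or with median-of-ratios scaling, and 0 to 2 on leaving out each library. In two-cell embryos 21 were called with spike-in scaling, with or without the column-set block, 1 in the set of NT1 to NT3 and Am1 to Am3 alone, and 8 to 15 on leaving out each library.

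The log2 changes that turned sign, none of them called, were these. In four-cell embryos Kdm4a was -0.14 with median-of-ratios scaling and -0.44 to 0.088 on leaving out each library, and Suv39h2 was -0.28 to 0.11 on leaving out each library. Between DR and D, spike-in scaling gave -0.19 for Kdm4a, -1.14 for Kdm4c and -1.15 for Ehmt1, and leaving out each library gave -0.31 to 0.16 for Suv39h1, -0.35 to 0.041 for Suv39h2, -0.26 to 0.14 for Setdb1, -0.25 to 0.19 for Ehmt2 and -0.42 to 0.17 for Kdm5b. In two-cell embryos Suv39h1 was -0.063 with median-of-ratios scaling and -0.085 in the set of NT1 to NT3 and Am1 to Am3 alone, and Kdm4a was 0.84 with spike-in scaling, with or without the column-set block, 0.64 in the R set alone and -0.25 to 0.061 on leaving out each library.

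In the two-cell table a replicate block by column number and set called 6 members (5 higher, 1 lower) and 9 listed genes, beside 35% of all genes called higher and 7.82% lower. Same-numbered libraries correlated at 0.0149 to 0.0654 in their deviations from the group means, and 8 of 12 libraries correlated best with their own number, so the numbers were not taken to pair the libraries. No paired analysis was made of the other comparisons, because the four-cell groups share no number in the column names and D and DR share 1 number. The four-cell numbers are adjacent (S7 and S8, S15 and S16, S17 and S18), but no label says that such neighbours belong together. Differences within these neighbours were not tested. The planned count tests were not run, since the tables hold FPKM, and voom stood in for them; spike-in scaling was not run for the four-cell table, which lists none. With 1136771 to 3101002 reads per library, four-cell values of Kdm4b and Kdm4d rest on few reads.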
